A study of Mus musculus with 6 samples.

Results

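The expression of 10 genes that store and release triglyceride was examined in the hearts of Mc4r KO mice and WT mice. They were the rows of the deposited gene table named Plin2, Plin3, Plin4, Plin5, Pnpla2, Lipe, Dgat1, Dgat2, Lpl and Angptl4, and all 10 were found among its 54532 genes. The melanocortin-4 receptor, Mc4r, is a brain receptor for feeding and energy balance, and the study asked how its loss affects the heart before cardiac function fails. The Mc4r KO mice were homozygous for the knockout (Mc4r-/-), the WT mice were littermates from the same heterozygous matings on a C57B/6/N background, and both ate standard chow. Hearts were taken from 3 mice of each genotype at 12 weeks, and 1 library of polyadenylated RNA was sequenced per mouse. The labels call the tissue heart in some fields and muscle in another, and the study's discussion calls it left ventricle and speaks of male mice.

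Heart muscle burns mostly fatty acids, and it keeps a small reserve of them as triglyceride in lipid droplets. Perilipins, the Plin proteins, coat the droplets and control how lipases reach them. Triglyceride is built by the Dgat enzymes and broken down from the droplet by Pnpla2 (adipose triglyceride lipase) and Lipe (hormone-sensitive lipase). Fatty acids also arrive from lipoproteins in the capillaries, where Lpl (lipoprotein lipase) frees them and Angptl4 inhibits it. Several of these genes are known targets of the fatty acid sensing receptors of the PPAR family.

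The values are FPKM, that is, fragments per gene divided by gene length in kilobases and by a factor for library size, so levels can be compared between genes. The reads counted on genes ranged from 14691076 to 16047003 per library. For Mc4r itself, 2 reads were counted, both from WT replicate 3, so its level could not check the genotypes. WT replicate 3 stood apart from the other libraries, with a summed FPKM of 4 atrial markers of 483. The sum was 43.0 in WT replicate 2, 55.7 in Mc4r KO replicate 1 and 0.471 to 0.884 in the rest. The mitochondrial chromosome took 59.3%, 57.4% and 47.1% of the summed FPKM in WT replicates 1, 2 and 3. It took 43.6%, 46.6% and 43.0% in Mc4r KO replicates 1, 2 and 3, so WT replicate 3 was close to Mc4r KO replicate 2. Heart muscle markers were present in every library, with a sum over 8 genes of 14344 to 15480 in the WT mice and 17556 to 19150 in the Mc4r KO mice. Actc1 differed most in FPKM, with a mean of 5178 in the WT mice and 7539 in the Mc4r KO mice. Actc1, Ryr2 and Myl2 were higher without overlap (log2 fold changes 0.54, 0.42 and 0.13). Myh6, Myl3, Tnnt2, Tnni3 and Mybpc3 overlapped (0.25, 0.12, 0.14, -0.0050 and 0.24). The sum over 5 fibroblast markers was 169 to 184 in the WT mice and 131 to 147 in the Mc4r KO mice. Dcn made up most of it, and Dcn and Pdgfra were lower without overlap (log2 fold changes -0.53 and -0.37). Col1a1, Col1a2 and Col3a1 overlapped between the groups (0.44, 0.03 and -0.33). The sum over 5 erythrocyte markers was 859 to 6344 against 620.3 to 1651, and that over 6 macrophage markers was 77.4 to 137 against 102 to 129. Of the macrophage markers, Cd68, Csf1r and Mrc1 were lower in the Mc4r KO mice without overlap (log2 fold changes -0.42, -0.37 and -0.40). C1qa, C1qb and Adgre1 overlapped (0.63, 0.31 and -0.03). The part of these cell types in the results below was not tested. The mitochondrial share entered some alternative fits, but its part cannot be told apart from that of genotype, since the groups did not overlap in it. Fewer cells of a type and less RNA per cell cannot be told apart in such bulk samples.

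Stretches before the RefSeq starts of the perilipin genes are shown because Plin3, Plin4 and Plin5 lie in 192282 bases of chromosome 17 and were all higher in the Mc4r KO mice. They are RefSeq promoter windows of GRCm38.p6, cut to bases before the start that lie in no exon of GENCODE M21, and written 5′ to 3′ along the gene. The Plin3 stretch lies before its RefSeq transcript but inside the deposited extent of the gene, in an intron of a longer transcript. Capitals mark AGGTCA (the unit that nuclear receptors bind), CCAAT and GGGCGG (a GC box) on either strand; the Plin4 stretch holds none.
Plin5 stretch before the RefSeq start, chr17:56117597-56117798, minus strand: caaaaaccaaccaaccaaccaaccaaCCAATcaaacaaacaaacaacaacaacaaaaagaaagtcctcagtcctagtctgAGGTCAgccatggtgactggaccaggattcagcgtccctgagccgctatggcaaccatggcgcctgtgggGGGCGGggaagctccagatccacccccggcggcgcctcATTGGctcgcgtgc
Plin4 stretch before the RefSeq start, chr17:56109804-56110032, minus strand: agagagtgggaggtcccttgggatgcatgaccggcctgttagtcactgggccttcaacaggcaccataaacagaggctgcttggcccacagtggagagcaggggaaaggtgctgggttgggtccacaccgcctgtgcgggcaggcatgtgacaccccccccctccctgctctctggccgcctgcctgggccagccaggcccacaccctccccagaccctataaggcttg
Plin3 stretch before the RefSeq start, chr17:56290512-56290761, minus strand: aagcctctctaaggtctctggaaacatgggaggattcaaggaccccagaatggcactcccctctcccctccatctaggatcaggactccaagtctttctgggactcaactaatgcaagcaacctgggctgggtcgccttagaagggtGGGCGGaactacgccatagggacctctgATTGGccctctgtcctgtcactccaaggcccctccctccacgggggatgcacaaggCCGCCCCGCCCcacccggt
Plin2 stretch before the RefSeq start, chr4:86670061-86670309, minus strand: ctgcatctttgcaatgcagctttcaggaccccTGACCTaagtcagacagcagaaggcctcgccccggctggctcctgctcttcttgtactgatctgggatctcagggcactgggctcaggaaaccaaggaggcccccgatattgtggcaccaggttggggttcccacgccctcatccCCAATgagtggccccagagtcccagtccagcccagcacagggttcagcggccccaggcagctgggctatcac

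RefSeq windows were found for 6 of the 10 genes, 8 windows in all, and not for Dgat1, Dgat2, Lpl and Angptl4. Each window ran from 250 bases before to 50 bases after a start, and the counts below are over whole windows. They thus include letters that are not printed here: the rest of the 4 windows shown, a second window of Plin5 and those of Pnpla2 and Lipe. The CCAAT match of Plin4, for example, lies outside its printed stretch. AGGTCA was present in windows of Plin2 and Plin5, against 16.3% of all 32851 windows. A direct repeat of AGGTCA with 1 base of any kind between the copies, the form that PPAR receptors prefer, was in none of the 8 windows and in 0.0396% of all windows. CCAAT was present in windows of all 4 Plin genes (37.4% of all windows), and GGGCGG in those of Plin2, Plin3, Plin5, Pnpla2 and Lipe (35.7%). CACGTG, the E-box, was present in those of Plin2 and Lipe (7.15%), and TATAAA in none (13.6%). These are matches of letters and not measured binding sites.

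Compared with those in the WT mice, 9 of the 10 genes had a higher fitted level in the Mc4r KO mice, and Lpl alone had a lower one. The largest difference was in Plin5, whose mean FPKM was 94.3 against 44.0, followed by Angptl4, Plin3, Lipe and Plin4. None of the 10 passed the threshold. The test was limma on log2(FPKM + 0.1) over 18035 genes, and a gene was called at an adjusted p under 0.05 if its log2 fold change also exceeded 0.75 in size. Over all genes tested, 0.46% were called and 0.582% had an adjusted p under 0.05. At an unadjusted p under 0.05 stood 4 of the 10 genes, Plin3, Plin4, Plin5 and Lipe, all higher in the Mc4r KO mice. Of all genes, 20.9% stood there, and 12% in that direction. Of the 11297 genes averaging an FPKM of 1 or more, where all 10 genes lie, 1928 were higher and 1218 lower at that p. With limma voom on the reads recovered from the FPKM, the same 4 genes had an adjusted p under 0.05 (3.93% of all genes) and Plin5 was called (1.69% of all genes). Without WT replicate 3 these 4 genes also had an adjusted p under 0.05 by limma, as did 10.3% of all genes. Leaving it out also set the groups further apart in mitochondrial share. WT replicates 1 and 2 had 59.3% and 57.4%, against 47.1% in WT replicate 3 and 43.0% to 46.6% in the Mc4r KO mice. The part of that share in this fit was not tested.

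In 7 of the 10 genes, the lowest Mc4r KO mouse was above the highest WT mouse. That pattern was seen in 14.1% of all genes tested, and in 19.6% of those averaging an FPKM of 1 or more, where all 10 genes lie. The median log2 fold change of the 10 genes was 0.42, and it was -0.01 over all genes tested. With 3 mice against 3, the exact permutation test of a single gene cannot give a two-sided p below 0.1. The mean GC content of the transcripts outside the mitochondrial chromosome, weighted by their reads, did not overlap between the groups. It was 45.6%, 46.1% and 47.2% in WT replicates 1, 2 and 3 and 47.3% to 47.7% in the Mc4r KO libraries. WT replicate 3 was nearer to Mc4r KO replicate 2 (47.3%) than to the other WT libraries. The 10 genes had a median GC content of 55.7%, against 49.5% over all genes tested. After the trend of each library with GC content was removed, the median of the 10 genes was 0.23, and with the mitochondrial share as a covariate it was 0.13. That share did not overlap between the groups, so fits with it cannot tell its part from that of genotype.

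**Figure D1:**
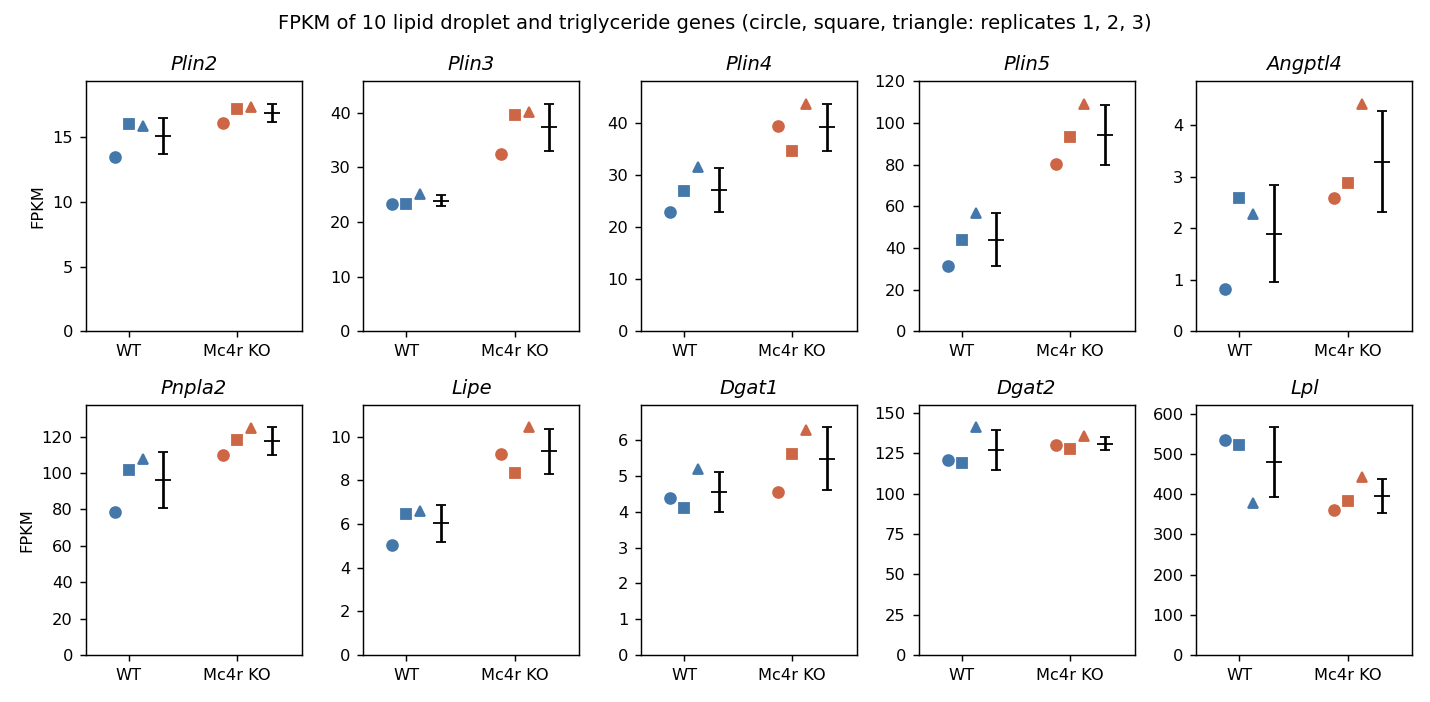
FPKM of the 10 genes in each library, WT in blue and Mc4r KO in orange, with circles, squares and triangles for replicates 1, 2 and 3. Black bars give the mean ± SD of 3 mice, each axis starts at 0, and the Mc4r KO points lie above all WT points in 7 panels but not for Dgat1, Dgat2 and Lpl.

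Among the droplet coats, Plin5 (ENSMUSG00000011305, chromosome 17, 56111601 to 56117596, minus strand) showed the largest difference. Plin5 is the perilipin of tissues that burn much fat, and it places droplets next to mitochondria. In the order of the replicates, its FPKM was 31.4, 43.6 and 57.0 in the WT mice and 80.5, 93.2 and 109 in the Mc4r KO mice. The groups did not overlap, with a gap of 23.5 FPKM between the highest WT mouse and the lowest Mc4r KO mouse. The mean was 44.0 ± 12.8 (SD, n = 3) in the WT mice and 94.3 ± 14.4 (SD, n = 3) in the Mc4r KO mice. The log2 fold change was 1.13 (SE 0.22, adjusted p = 0.0718 by limma), with a 95% interval of 0.61 to 1.64. Plin5 was called under 5 of 19 alternatives: voom, a mean FPKM of at least 1 (1.3% of all genes called), array weights (2.41%), protein-coding genes only (1.54%) and the fit without WT replicate 3 (4.04%). Without WT replicate 3 its difference was 1.34 on the log2 scale (adjusted p = 0.0147 by limma). With the mitochondrial share as a covariate the log2 fold change was 0.55 (adjusted p = 0.484 by limma).

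Plin3 (ENSMUSG00000024197, chromosome 17, 56277476 to 56292873, minus strand), a perilipin found in many tissues that binds young droplets, had the lowest adjusted p of the 10 genes. Its FPKM was 23.3, 23.4 and 25.1 in the WT mice and 32.4, 39.6 and 40.1 in the Mc4r KO mice. The WT mice lay close together, and all 3 Mc4r KO mice were above them. The mean was 23.9 ± 1.04 (SD, n = 3) against 37.4 ± 4.29 (SD, n = 3), and the log2 fold change was 0.63 (SE 0.10, adjusted p = 0.0554 by limma). With the mitochondrial share as a covariate the log2 fold change was 0.57 (adjusted p = 0.315 by limma).

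Plin4 (ENSMUSG00000002831, chromosome 17, 56100591 to 56109803, minus strand) coats droplets in fat and muscle. Its FPKM was 23.0, 27.0 and 31.6 in the WT mice and 39.4, 34.7 and 43.7 in the Mc4r KO mice. The groups did not overlap, and their closest members differed by 3.10 FPKM. On the log2 scale the difference was 0.54 (SE 0.14, adjusted p = 0.108 by limma), and with the mitochondrial share as a covariate it was 0.16.

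Plin2 (ENSMUSG00000028494, chromosome 4, 86648386 to 86670060, minus strand), the perilipin that most cells use and whose protein follows the amount of stored lipid, differed least of the 4. Its FPKM was 13.5, 16.0 and 15.8 in the WT mice and 16.1, 17.2 and 17.4 in the Mc4r KO mice. WT replicates 2 and 3 were almost level with Mc4r KO replicate 1, and the gap between the groups was 0.11 FPKM. The log2 fold change was 0.16 (SE 0.10, adjusted p = 0.381 by limma), and it was -0.03 when the libraries were scaled to the FPKM outside the mitochondrial chromosome.

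A ratio of genes within a library does not depend on how the libraries were scaled to each other. A trend with GC content does not cancel in it where the genes differ in GC content. That content was 52.1% for Plin2 and 58.9% for Plin5. No ratio was computed with the GC trend removed or with the mitochondrial share as a covariate. The log2 ratio of Plin2 to Plin5 was -1.21, -1.44 and -1.84 in the WT mice and -2.32, -2.43 and -2.65 in the Mc4r KO mice. All 3 Mc4r KO mice had the lower ratio, and the means differed by -0.97 on the log2 scale. The exact permutation test gave p = 0.1, the smallest it can give with 3 mice against 3, and 0.2 after adjustment over the 6 ratios compared.

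**Figure D2:**
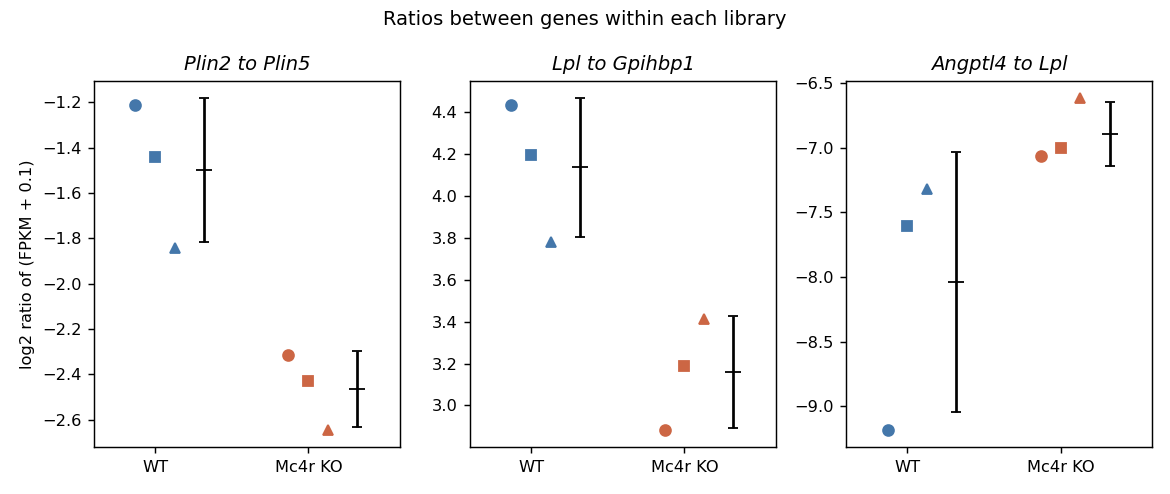
Log2 ratios of FPKM + 0.1 between pairs of genes in each library, WT in blue and Mc4r KO in orange, with circles, squares and triangles for replicates 1, 2 and 3 and black bars for the mean ± SD of 3 mice. The ratios of Plin2 to Plin5 and of Lpl to Gpihbp1 are lower in all 3 Mc4r KO mice, and that of Angptl4 to Lpl is higher in all 3.

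Plin4 and Plin5 lie 1797 bases apart on the same strand, and Plin3 is also on it. Of the genes tested with a start within 250000 bases of the Plin5 start, 14 others had a mean FPKM of at least 1. Their median log2 fold change was 0.24, 11 of the 14 were positive, and 6 were higher in the Mc4r KO mice without overlap and 1 lower. Over all genes tested at that level, the median was 0.02, 52.9% were positive, and 19.6% were higher and 13.9% lower without overlap. Lrg1, which encodes a secreted glycoprotein and starts 4405 bases from Plin5, had a log2 fold change of 1.07 (SE 0.18, adjusted p = 0.0579 by limma). Sema6b (0.70, adjusted p = 0.108) and Fem1a (0.57, adjusted p = 0.0721) followed, and these 3 neighbours were chosen after their values were seen. No exon of Plin5 or Plin3 overlaps another gene, and 0.29% of the exon length of Plin4 does.

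**Figure D3:**
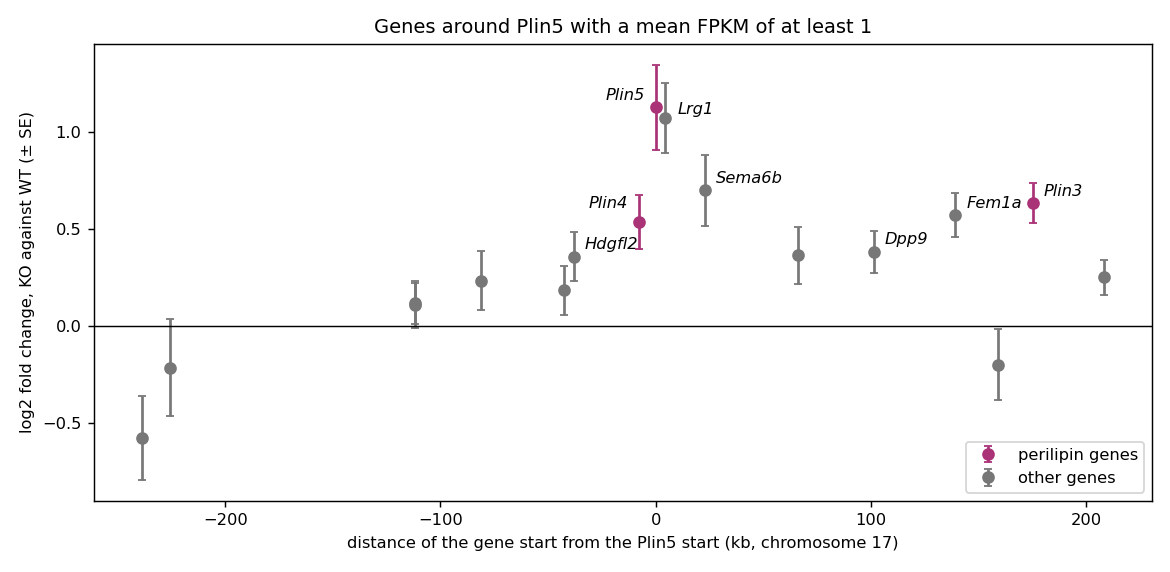
Log2 fold change (Mc4r KO against WT) ± SE of each gene with a mean FPKM of at least 1 around Plin5, against the distance of its start from the Plin5 start in kb along chromosome 17. The 3 perilipin genes, in purple, lie at 0.54 to 1.13, and of the 14 other genes, in grey, 11 lie above 0.

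Pnpla2 (ENSMUSG00000025509, chromosome 7, 141455198 to 141460743, plus strand) takes the first step in breaking down stored triglyceride. Its FPKM was 78.6, 102 and 108 in the WT mice and 110, 118 and 125 in the Mc4r KO mice. WT replicate 1 was the lowest, and WT replicate 3 was 2.15 FPKM below the lowest Mc4r KO mouse. The difference was 0.30 on the log2 scale (SE 0.13, adjusted p = 0.248 by limma), it was 0.16 without WT replicate 1, and it was 0.04 with the mitochondrial share as a covariate. Its 95% interval ran from -0.01 to 0.61.

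Pnpla2 is held back by G0s2 and activated by Abhd5, and neither partner passed the test. G0s2 had an FPKM of 34.0, 35.3 and 53.7 in the WT mice and 42.5, 47.3 and 39.9 in the Mc4r KO mice, with a log2 fold change of 0.11 (SE 0.18). Abhd5 had an FPKM of 6.16, 5.94 and 5.86 in the WT mice and 6.21, 6.95 and 6.88 in the Mc4r KO mice, with a log2 fold change of 0.15 (SE 0.09). The log2 ratio of Pnpla2 to G0s2 differed between genotypes by 0.20 and that of Pnpla2 to Abhd5 by 0.15. Both ratios overlapped between the groups (exact permutation p = 0.4 and 0.7; 0.48 and 0.7 after adjustment over the 6 ratios).

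Lipe (ENSMUSG00000003123, chromosome 7, 25379527 to 25398710, minus strand), which follows Pnpla2 in the breakdown of triglyceride, was the lipase with the larger difference. Its FPKM was 5.05, 6.46 and 6.58 in the WT mice and 9.23, 8.35 and 10.4 in the Mc4r KO mice. The lowest Mc4r KO mouse was 1.77 FPKM above the highest WT mouse. The log2 fold change was 0.63 (SE 0.14, adjusted p = 0.0871 by limma), and with the mitochondrial share as a covariate it was 0.36. An antisense gene covers 15.6% of its exon length, and without a stated use of strand their reads cannot be told apart.

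The enzymes of the last step of triglyceride synthesis did not separate the groups. Dgat2 (ENSMUSG00000030747, chromosome 7, 99153658 to 99182719, minus strand) had the higher level of the pair, with an FPKM of 121, 119 and 141 in the WT mice and 130, 128 and 136 in the Mc4r KO mice. WT replicate 3 was the highest of the 6 libraries. The fitted log2 difference was 0.05 (SE 0.10, adjusted p = 0.801 by limma), with a 95% interval of -0.17 to 0.27, and its sign changed under 4 of 19 alternatives.

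Dgat1 (ENSMUSG00000022555, chromosome 15, 76502015 to 76511953, minus strand) had an FPKM of 4.39, 4.10 and 5.19 in the WT mice and 4.55, 5.62 and 6.28 in the Mc4r KO mice. Mc4r KO replicate 1 lay inside the range of the WT mice. The difference was 0.26 on the log2 scale (SE 0.15, adjusted p = 0.382 by limma), and 0.04 with the mitochondrial share as a covariate. The log2 ratio of Dgat2 to Dgat1 differed by -0.21 in the Mc4r KO mice, with overlapping groups (exact permutation p = 0.3, and 0.45 after adjustment over the 6 ratios).

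Lpl (ENSMUSG00000015568, chromosome 8, 68880491 to 68907448, plus strand) had the highest level of the 10 genes and was the single one with a negative difference. Its FPKM was 535, 524 and 379 in the WT mice and 361, 383 and 443 in the Mc4r KO mice. WT replicate 3 lay among the Mc4r KO mice, below replicates 2 and 3 of that group. On the log2 scale the difference was -0.27 (SE 0.16, adjusted p = 0.396 by limma), it was -0.43 without WT replicate 3 (adjusted p = 0.056), and it was 0.11 with the mitochondrial share as a covariate. Lpl also had the lowest GC content of the 10 genes, 43.5%.

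Angptl4 (ENSMUSG00000002289, chromosome 17, 33773750 to 33781575, minus strand), a secreted inhibitor of Lpl that fasting and fatty acids are known to raise, had the lowest level. Its FPKM was 0.82, 2.59 and 2.27 in the WT mice and 2.59, 2.88 and 4.42 in the Mc4r KO mice. The groups were separated by 0.0031 FPKM, since WT replicate 2 and Mc4r KO replicate 1 were nearly equal, and WT replicate 1 rested on 38 reads. The log2 fold change was 0.88 (SE 0.42, adjusted p = 0.283 by limma), it was 0.39 without WT replicate 1, and it was 0.15 with the mitochondrial share as a covariate. The log2 ratio of Angptl4 to Lpl was -9.18, -7.61 and -7.32 in the WT mice and -7.07, -7.00 and -6.61 in the Mc4r KO mice. Its means differed by 1.14 (exact permutation p = 0.1, and 0.2 after adjustment over the 6 ratios), and the smallest difference with 1 library left out was 0.57. The ratio itself was not fitted with the mitochondrial share. With that share as a covariate the log2 fold changes of Angptl4 and Lpl were close, at 0.15 and 0.11.

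**Figure D4:**
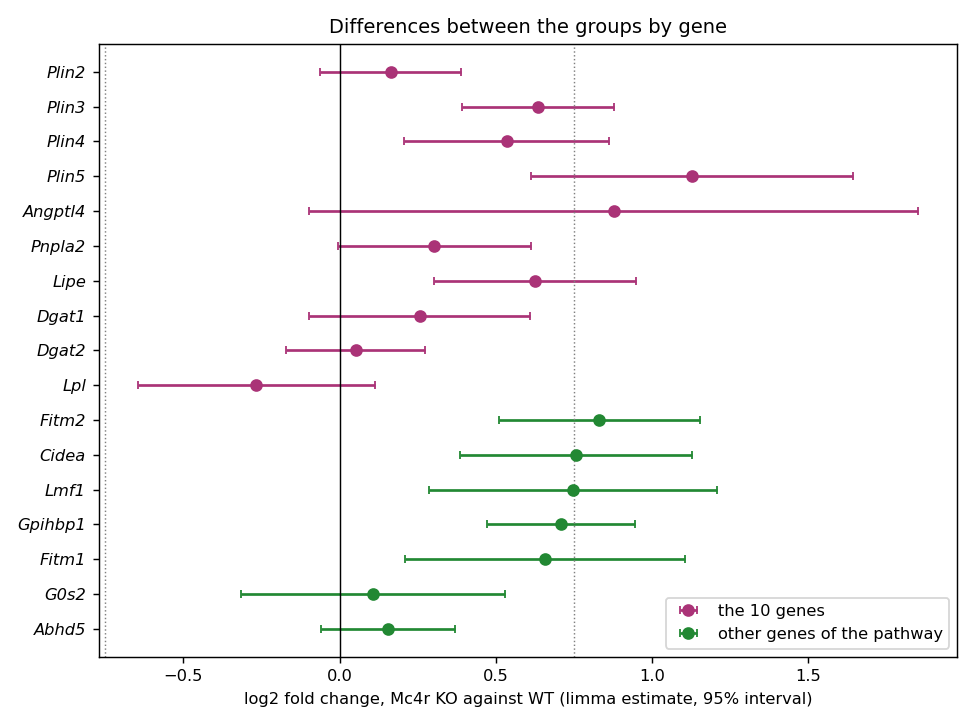
Log2 fold change (Mc4r KO against WT) with its 95% interval from limma for the 10 genes, in purple, and for 7 other genes of the pathway, in green. Dotted lines stand at an absolute log2 fold change of 0.75, and the intervals of Plin3, Plin4, Plin5 and Lipe lie above 0, as do those of Fitm2, Cidea, Lmf1, Gpihbp1 and Fitm1.

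The order of the levels over all 6 libraries was Lpl (mean FPKM 437), Dgat2 (129), Pnpla2 (107), Plin5 (69.1), Plin4 (33.2), Plin3 (30.7), Plin2 (16.0), Lipe (7.68), Dgat1 (5.02) and Angptl4 (2.59). Each gene was above the next in all 6 libraries, except that Plin4 was above Plin3 in 4 of 6. WT replicate 1 was the lowest library for 7 of the 10 genes, and Mc4r KO replicate 3 was the highest for 8. The genes whose log2 levels followed Plin5 most closely over the 6 libraries, among 11296 genes averaging an FPKM of 1 or more, were Atg101 (Pearson r = 0.998), Dock5 (0.997), Sgta (0.997), Ppp5c (0.996) and Lcn2 (0.995). All 6 points share the difference in genotype. Of the other 9 genes, Lipe was the most like Plin5 (r = 0.963, rank 219), then Plin4 (0.960), Plin3 (0.940) and Pnpla2 (0.938), and Lpl was the least (-0.693).

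Of 41 further genes of droplet and triglyceride handling, 37 were tested and none was called by limma. Gpihbp1 alone had an adjusted p under 0.05, and at an unadjusted p under 0.05 stood 11 genes that were higher in the Mc4r KO mice and 1 that was lower, against 12% and 8.83% of all genes tested. With limma voom on the recovered reads 3 of the 41 were called (1.69% of all genes). Without overlap between the groups, 14 were higher and 3 lower, against 14.1% and 12.4% of all genes, and the median log2 fold change was 0.23. Gpihbp1, which carries Lpl to the capillary wall, had an FPKM of 24.7, 28.5 and 27.5 in the WT mice and 48.8, 41.9 and 41.4 in the Mc4r KO mice. The log2 difference was 0.71 (SE 0.10, adjusted p = 0.0434 by limma), just short of the 0.75 needed for a call. The other 5 endothelial markers summed to 148 to 182 FPKM in the WT mice and 163 to 192 in the Mc4r KO mice, so their sums overlapped, with log2 fold changes from -0.07 for Cdh5 to 0.42 for Tie1. Their part in the difference of Gpihbp1 was not tested.

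The log2 ratio of Lpl to Gpihbp1 was 4.43, 4.19 and 3.78 in the WT mice and 2.88, 3.19 and 3.41 in the Mc4r KO mice. It was lower in all 3 Mc4r KO mice, with a difference of -0.97 between the means (exact permutation p = 0.1, and 0.2 after adjustment over the 6 ratios). Lmf1, which Lpl needs to mature, had an FPKM of 0.91, 1.41 and 1.44 in the WT mice and 1.97, 2.33 and 2.11 in the Mc4r KO mice. The groups differed by 0.75 on the log2 scale (SE 0.20, adjusted p = 0.108 by limma).

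None of the genes that form and enlarge droplets was called by limma. Fitm2, which helps droplets bud from the endoplasmic reticulum, had an FPKM of 38.9, 44.7 and 54.3 in the WT mice and 73.0, 83.7 and 87.2 in the Mc4r KO mice. Its log2 fold change was 0.83 (SE 0.14, adjusted p = 0.056 by limma), and it was called under 5 of 19 alternatives. Its relative Fitm1 had an FPKM of 46.3, 48.7 and 77.4 in the WT mice and 84.3, 88.7 and 91.8 in the Mc4r KO mice, and WT replicate 3 was the WT mouse nearest to them. The groups differed by 0.66 on the log2 scale (SE 0.19, adjusted p = 0.128 by limma).

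Cidea, which fuses droplets, had an FPKM of 12.1, 14.7 and 15.7 in the WT mice and 19.3, 27.0 and 26.2 in the Mc4r KO mice. Its log2 fold change was 0.76 (SE 0.16, adjusted p = 0.0791 by limma). Since Cidea and several perilipins are abundant in fat, markers of fat cells were examined beside them. The 8 adipocyte markers summed to 0.64 to 1.76 FPKM in the WT mice and 0.0283 to 0.597 in the Mc4r KO mice, and Adipoq, Plin1, Lep, Retn and Adrb3 had no more than 3 reads in any library. Of the 4 brown adipocyte markers, Ucp1 and Elovl3 were at 0 in all 6 libraries. Beside Cidea itself there was Cox8b, with an FPKM of 597 to 1101 in the WT mice and 1067 to 1202 in the Mc4r KO mice.

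None of 22 known PPAR targets of fatty acid oxidation was called by limma. At an unadjusted p under 0.05 stood 3 that were higher and 1 that was lower, against 12% and 8.83% of all genes. Of the 11297 genes averaging an FPKM of 1 or more, where all 22 lie, 1928 were higher and 1218 lower at that p. Without overlap, 2 of the 22 were higher, against 14.1% of all genes, and the median log2 fold change of the 22 was 0.15. Fabp3, the fatty acid binding protein of heart muscle, had an FPKM of 2177, 2274 and 3398 in the WT mice and 3966, 4592 and 5301 in the Mc4r KO mice. Its log2 fold change was 0.84 (SE 0.23, adjusted p = 0.116 by limma), and 37.3% of its 50-base words are shared with other genes, so reads may be split. Slc25a20, which carries acylcarnitine into mitochondria, was the other one without overlap, at 32.3, 36.6 and 39.3 against 43.7, 47.8 and 55.0 FPKM. The groups differed by 0.43 on the log2 scale (SE 0.12, adjusted p = 0.114 by limma).

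The groups overlapped for Pdk4, which turns the heart from glucose to fat and is a sensitive PPAR target. Its FPKM was 54.3, 126 and 108 in the WT mice and 115, 121 and 290.1 in the Mc4r KO mice, with a log2 difference of 0.82 (SE 0.43, adjusted p = 0.333 by limma). WT replicate 1 was far below the other 5 libraries and Mc4r KO replicate 3 far above them. Acot2, a mitochondrial thioesterase, had a log2 fold change of 0.51 (SE 0.22) with overlapping groups. Cpt1b, the muscle enzyme that admits fatty acids to mitochondria, was listed at 0.379 to 1.46 FPKM in the WT mice and 1.17 to 1.85 in the Mc4r KO mice. Another gene model covers 81.4% of its exons on the same strand, so these values are a part of its reads and its log2 fold change of 0.92 (SE 0.42) is uncertain.

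**Figure D5:**
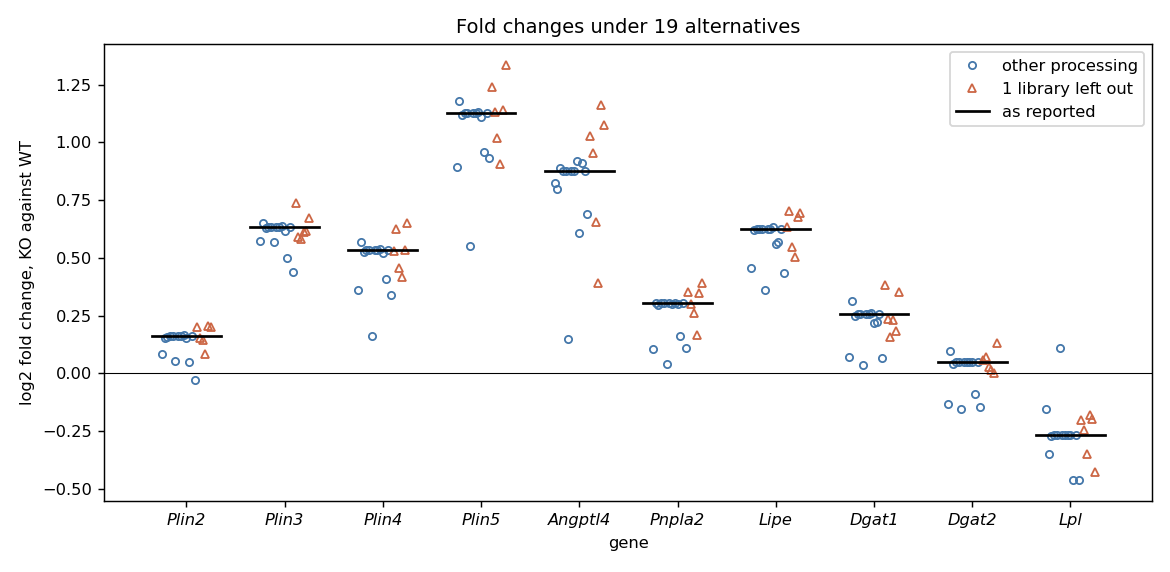
Log2 fold change (Mc4r KO against WT) of the 10 genes as reported (black bars), under other processing (blue circles) and with 1 library left out (orange triangles). Plin3, Plin4, Plin5, Lipe, Pnpla2, Dgat1 and Angptl4 stay above 0 under all 19 alternatives, while Plin2, Dgat2 and Lpl cross it.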

How the data were processed

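Libraries were made from the polyadenylated RNA of 6 mouse hearts. After read filtering, the authors used HISAT2 (version 2.0.5) on mm10, per the labels, then featureCounts, and deposited FPKM. Which annotation release was used, and whether counting used strand, is not given in the sources used here.

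Reads per gene were recovered from the deposited FPKM and gene length, and 100% of values were whole (tolerance 0.05 of a read). Since FPKM are no counts, limma 3.58.1 (R 4.3.3) was run on log2(FPKM + 0.1) after median-of-ratios scaling, over all 6 libraries without covariates and with a mean-variance trend. Fold changes are on this scale, which understates the change of low genes. The 18035 genes with an average FPKM of 0.1 or more entered, the 10 genes among them, and two-sided p-values were adjusted by Benjamini-Hochberg. Ratios of genes were compared with exact permutation tests. On simulated data this fit missed part of the smaller changes and made some false calls, and limma voom missed fewer and made fewer. The simulation gave every gene the same spread between mice beyond counting noise, unlike these libraries. It therefore cannot show which test is the better one here. Replicates were separate mice, per the study's methods.

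The 10 genes and all lists were chosen with earlier results of these data known. Named genes were the 10, the 5 largest differences of each list at an average FPKM of 1 or more, the partners in the ratios, markers, and the 5 genes most like Plin5; other names were chosen after their values were seen. Exon overlaps and shared words of 50 bases came from GENCODE M21, and 99.8% of the identifiers were found there. The alternatives, fits without WT replicate 3 among them, are described in the closing section. Tables and figures used Python 3.11.15, pandas 2.3.3 and matplotlib 3.10.9.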

Additional observations from a re-analysis of the deposited data

How the results depend on the processing

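The FPKM as deposited gave the same fit as reported, since the library scaling factors were all 1. Over the 19 other alternatives, 179 of the 190 fold changes of the 10 genes kept their sign and their side of the threshold. None of the 10 was called as reported, so any uncalled value of the same sign counted as kept, whatever its size. With the mitochondrial share as a covariate, Plin5 at 0.55 and Angptl4 at 0.15 counted so, against 1.13 and 0.88 as reported. Plin5 became a call with a mean FPKM of at least 1 (log2 fold change 1.13, adjusted p = 0.0498), array weights (1.18), limma voom on recovered reads (1.12), protein-coding genes only (1.13), and without WT replicate 3 (1.34, adjusted p = 0.0147). These were the only settings with 1 of the 10 genes called, and the range with 1 library left out was 0 to 1. The sign turned for Dgat2 with quantile normalization (-0.0905), scaling outside the mitochondrial chromosome (-0.14), the mitochondrial share as a covariate (-0.16) and the GC trend removed (-0.13). It turned for Plin2 with scaling outside the mitochondrial chromosome (-0.0310), for Lpl with the mitochondrial share (0.11), and for the ratio of Pnpla2 to Abhd5 without WT replicate 1 (-0.0088, and up to 0.25 with another library left out). The GC trend removal was chosen after seeing the data.

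The median of the 10 genes moved to 0.22 with scaling outside the mitochondrial chromosome, 0.13 with the mitochondrial share and 0.23 with the GC trend removed, and it ranged from 0.31 to 0.52 with 1 library left out. Scaling outside the mitochondrial chromosome shifted the median of all genes by -0.18 and left 39.0% of the calls higher in the Mc4r KO mice, against 68.7% as reported and 56.9% with the GC trend removed. Of the 41 pathway genes, 1 was called with a mean FPKM of at least 1, 4 with array weights, 3 with limma voom, 3 with protein-coding genes only, and 0 to 4 with 1 library left out. Over all genes, 83 were called as reported, 44 with a pseudocount of 1, 22 with no filter, 147 with a mean FPKM of at least 1, 49 with quantile normalization, 41 with scaling outside the mitochondrial chromosome, 21 without the trend, 435 with array weights, 2 with the mitochondrial share, 305 with limma voom and 209 with protein-coding genes only; with a pseudocount of 0.01 or the GC trend removed the number stayed within 1.5 times. With 1 library left out the number ran from 7 to 726, the highest without WT replicate 3. The mitochondrial share was lower in every Mc4r KO library than in any WT library. The cause of these changes was not tested.

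Deviations from the group means correlated at -0.14, 0.0074 and -0.08 between mice of the same replicate number over 11297 genes. These values gave no sign of pairing by number, but with 3 mice per group they cannot exclude it. With the replicate block 11 genes were called, none of them among the 10. The SE of Plin5 was then 0.11 against 0.22 as reported (adjusted p = 0.0785 by limma), and that of Lpl was 0.18 against 0.16.

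The depth limits Angptl4 most, whose lowest library had 38 reads, and 3 mice per group limit every p-value.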

Other observations

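Some further genes of triglyceride handling, chosen after their values were seen, are given as values without a call. Pnpla3, a relative of Pnpla2 that also sits on droplets, had 4, 8 and 6 reads in the WT mice and 36, 20 and 25 reads in the Mc4r KO mice. Its log2 fold change was 1.77 (SE 0.30, adjusted p = 0.0578 by limma), and it was called under 4 of 18 alternatives. Mgll, the lipase of the last step after Pnpla2 and Lipe, had an FPKM of 23.7, 31.4 and 30.0 in the WT mice and 43.3, 43.4 and 36.5 in the Mc4r KO mice (adjusted p = 0.0996 by limma). Lpin1, the phosphatase that makes the substrate of the Dgat enzymes, had an FPKM of 19.9, 17.7 and 18.3 in the WT mice and 23.9, 31.4 and 24.1 in the Mc4r KO mice (adjusted p = 0.103 by limma).

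On the other side, Acsl3, an acyl-CoA synthetase of young droplets, had an FPKM of 1.5, 1.21 and 1.11 in the WT mice and 0.562, 0.483 and 1.03 in the Mc4r KO mice (log2 fold change -0.85, adjusted p = 0.157 by limma). Cpt1a, the liver form of the enzyme that admits fatty acids to mitochondria, had an FPKM of 13.8, 17.8 and 20.7 in the WT mice and 12.0, 12.4 and 13.8 in the Mc4r KO mice. Its groups overlapped by a small margin (log2 fold change -0.43, adjusted p = 0.179 by limma).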
